A study of Drosophila melanogaster with 6 samples.

Results

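Of the 63 genes that had a probe naming exactly 1 gene, 5 genes of ribosome production and translation were followed in Drosophila melanogaster embryos. They were Nop60B, NHP2, Nop56, RpLP0-like and mRpS5, each with 1 spot on the array, and all 5 matched the gene table by gene ID. Double heterozygous embryos, labelled EN-/GsbN- for engrailed and gooseberry-neuro, were compared with wild-type Oregon embryos, and both were raised at 25 °C. Total RNA of both genotypes was amplified, labelled with Cy3 or Cy5 and put on the same array. There were 6 arrays, a dye-swapped pair for each of 3 biological replicates. The labels give neither alleles, embryo stage nor pool size, and describe no control stock sharing the mutants' background, so genotype, stock and any difference in age cannot be told apart. The engrailed and gooseberry-neuro transcripts were not analysed here. The genes were chosen by function and by earlier results for the same log2 ratio of mutant over wild type, so those ratios are given as a description, and their place in the fit over all probes supports nothing.

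The nucleolus makes ribosomal RNA, trims it, modifies it and assembles it with proteins into subunits. Small nucleolar ribonucleoproteins do the modifying: box H/ACA particles convert uridine to pseudouridine, and box C/D particles methylate ribose. Nop60B encodes the fly pseudouridine synthase of the box H/ACA particles, the counterpart of human dyskerin, and NHP2 encodes another core protein of the same particles. Nop56 encodes a core protein of the box C/D particles. RpLP0-like resembles the ribosomal stalk protein P0, and the gene table lists MRT4 among its older names. In Saccharomyces cerevisiae, Mrt4 is an assembly factor that holds the place of P0 on immature large subunits, so the gene is described here by its name rather than as a stalk protein. mRpS5 encodes a protein of the small subunit of the mitochondrial ribosome, which is made apart from the nucleolus.

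The spots of both box H/ACA genes were brighter in the mutant dye on all 6 arrays. The deposited volume, which is pixel level times square mm after subtraction of the local background, was read for both genotypes on each array. With the mutant RNA in Cy3, Nop60B had volumes of 129, 69.4 and 46.4 in mutants in replicates 1, 2 and 3, against 79.0, 46.1 and 14.0 in wild type. With the mutant RNA in Cy5, Nop60B had 131, 69.8 and 35.4 in mutants, against 96.7, 58.7 and 20.0 in wild type. The mutant volume exceeded the wild-type volume of its own array in each case, although the ranges of the genotypes overlapped across arrays because the arrays differed in brightness. NHP2 had 78.6, 59.8 and 38.6 in mutants, against 55.5, 37.9 and 20.0 in wild type, with the mutant in Cy3. On the swapped arrays, with the mutant in Cy5, NHP2 had 88.9, 41.7 and 37.6 in mutants, against 71.9, 38.9 and 23.7 in wild type. The smallest gap of NHP2 was thus in replicate 2 with the mutant in Cy5.

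Nop56, of the other class of particles, was not uniformly brighter in either genotype. Its volumes with Cy3-labelled mutant RNA were 75.8, 71.3 and 38.8 in mutants, against 71.7, 69.4 and 21.9 in wild type. With the dyes swapped, they were 93.8, 46.6 and 53.3 in mutants, against 79.4, 53.1 and 37.8 in wild type. The wild-type volume was the higher one on 1 array, that of replicate 2 with the mutant in Cy5.

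RpLP0-like was brighter in the mutant dye on all 6 arrays, on a spot closer to its local background. Its volumes were 6.35, 4.16 and 3.74 in mutants, against 4.65, 2.84 and 1.22 in wild type, with the mutant in Cy3. With the dyes swapped they were 5.90, 2.82 and 3.72 in mutants, against 4.92, 1.97 and 1.40 in wild type. Before subtraction its spot stood at 3.61 to 14.9 times the local background in mutants and at 2.20 to 7.83 times in wild type. The other 4 genes stood at 9.88 times or more in mutants and at 9.19 times or more in wild type. All 5 genes were above background, set at 2 times the local background, in both genotypes on all 6 arrays.

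mRpS5 differed in direction between arrays. Its volumes with Cy3-labelled mutant RNA were 25.9, 20.9 and 17.8 in mutants, against 25.6, 16.6 and 7.99 in wild type. After the dye swap, they were 29.1, 17.5 and 16.9 in mutants, against 31.1, 23.1 and 11.0 in wild type. Wild type was the brighter genotype on the Cy5 arrays of replicates 1 and 2.

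**Figure D1:**
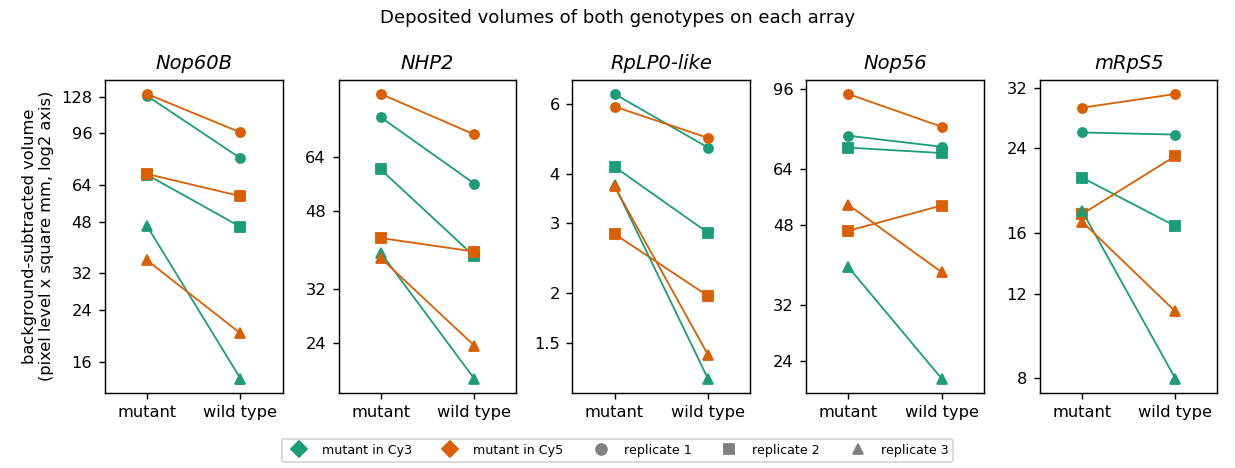
Deposited background-subtracted volumes (pixel level times square mm, log2 axis, own range per gene) of mutant and wild-type RNA, with a line for each array, coloured by the dye of the mutant RNA and marked by replicate. All 6 lines fall to the right for Nop60B, NHP2 and RpLP0-like, 5 of 6 do for Nop56 and 4 of 6 for mRpS5, and the lines of replicate 3 are the steepest.

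Volumes of 2 dyes are not on 1 scale, so each array was normalized by loess, which is meant to centre the log2 ratio near 0 along the range of brightness. In whole embryos, a ratio cannot tell more RNA per cell from more cells of a kind. After this step, Nop60B had a log2 ratio of mutant over wild type of 0.50, 0.44 and 0.48 in replicates 1, 2 and 3, each the mean of a dye-swap pair (mean 0.47 ± 0.03, SD, n = 3, a fold of 1.39). NHP2 was at 0.36, 0.42 and 0.05 (0.28 ± 0.20, 1.21-fold), so replicate 3 stood near 0 while the other replicates lay close to Nop60B. Nop56 was at 0.12, -0.03 and -0.10 (-0.01 ± 0.11), on both sides of 0. RpLP0-like was at 0.37, 0.55 and 0.55 (0.49 ± 0.10, 1.40-fold). mRpS5 was at -0.01, 0.07 and 0.18 (0.08 ± 0.09, 1.06-fold).

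In a limma fit over all 14632 tested probes, 17.8% passed an adjusted p of 0.05 in either direction and 7.27% passed as higher in mutants. Of the 5 genes 2 did, Nop60B and RpLP0-like, both higher in mutants. Since this ratio was used to choose the genes, nothing is read from that count or from the call of either gene. The median log2 ratio was 0.28 over the 5 genes and 0.01 over all tested probes. After loess, 3 of the 5 genes were higher in mutants on all 6 arrays, against 16.4% of all tested probes. Nothing is read from this count either.

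Nop60B and RpLP0-like moved little when 1 replicate was left out, and NHP2 moved more. Nop60B was at 0.46, 0.49 and 0.47 without replicates 1, 2 and 3, and RpLP0-like at 0.55, 0.46 and 0.46. NHP2 was at 0.23, 0.20 and 0.39, the last without its replicate near 0. The calls did change: that of Nop60B ended without any 1 of the replicates, and that of RpLP0-like without replicate 2 or 3. Without replicate 2, 0 of all tested probes passed in limma and 2898 had an unadjusted p under 0.05, so the loss there was not particular to these genes. Without replicate 1 and without replicate 3, 2450 and 3177 probes still passed, against 2609 with all replicates.

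**Figure D2:**
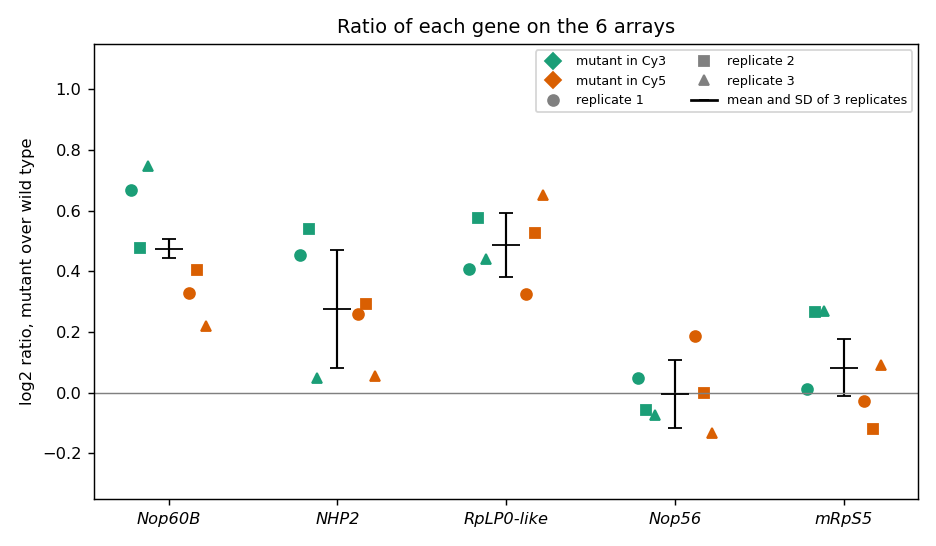
Loess-normalized log2 ratio of mutant over wild type (vertical axis) of each gene on the 6 arrays, coloured by the dye of the mutant RNA and marked by replicate, with the mean and SD of the 3 replicates in black. Nop60B, NHP2 and RpLP0-like lie above 0 on all arrays, as do 16.4% of all tested probes. Nop56 and mRpS5 lie on both sides of 0, and the Cy3 arrays of Nop60B lie above its Cy5 arrays.

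The ratio of Nop60B differed between the dye orientations. It was at 0.63 ± 0.14 with the mutant in Cy3 and at 0.32 ± 0.09 with it in Cy5 (SD, n = 3 each), without overlap: 0.48 to 0.75 against 0.22 to 0.40. Its replicate means therefore spread less than its arrays, and 96.9% of the tested probes had a larger SD between replicates. mRpS5 was at 0.18 ± 0.15 with the mutant in Cy3 and at -0.02 ± 0.11 with it in Cy5. For NHP2 the values were 0.35 ± 0.26 and 0.20 ± 0.13. RpLP0-like changed little, with 0.47 ± 0.09 for Cy3 and 0.50 ± 0.16 for Cy5, and Nop56 was at -0.03 ± 0.07 and 0.02 ± 0.16.

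The dye difference is the mean log2 ratio of Cy3 over Cy5 of a dye-swap pair, in which the genotypes cancel, so it was not used to choose the genes and could be tested. It was 0.16 ± 0.12 for Nop60B, 0.10 ± 0.09 for mRpS5 and 0.07 ± 0.07 for NHP2. It was -0.01 ± 0.08 for RpLP0-like and -0.02 ± 0.05 for Nop56 (SD, n = 3 replicates each). In limma, 0 of the 5 genes passed, with adjusted p between 0.582 for Nop60B and 0.959 for RpLP0-like, and 0.0205% of all tested probes passed. At an unadjusted p under 0.05, 1 of the 5 did, Nop60B (95% interval 0.03 to 0.29), against 8.28% of all tested probes. In a limma fit of only the 4290 probes above background in both dyes on all arrays, 156 passed. The adjusted p of Nop60B in that limma fit was 0.0784. Both Nop60B and mRpS5 were brighter in Cy3 in 3 of 3 replicates. A dye difference of a gene cancels in the mean over its dye-swap pair.

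Replicate 3 stood apart before normalization. There the log2 ratio of the background-subtracted volumes was above 0 in both dye orientations for all 5 genes. With the mutant in Cy3 it was 1.73 for Nop60B, 0.95 for NHP2, 1.61 for RpLP0-like, 0.82 for Nop56 and 1.16 for mRpS5. With the mutant in Cy5 it was 0.83, 0.66, 1.41, 0.50 and 0.62 in the same order of genes. Probes of like brightness, within 0.5 of the gene's mean log2 level and above background throughout, were shifted the same way. Their median lay between 0.70 and 0.79 around these genes with the mutant in Cy3 and between 0.37 and 0.49 with it in Cy5.

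Against that shift the genes stood differently. Nop56 followed the like-bright probes, with 0.82 against their 0.78 in Cy3 and 0.50 against 0.48 in Cy5. Nop60B exceeded them by 0.94 in Cy3 and 0.34 in Cy5, and RpLP0-like by 0.92 and 1.04. mRpS5 exceeded them by 0.45 and 0.18, and NHP2 by 0.20 and 0.22. In replicates 1 and 2 the median of like-bright probes stayed between -0.35 and 0.18 for all 5 genes. The normalized ratios are measured otherwise, after background correction and against a loess curve over all spots not read as controls or blanks. In replicate 3 they differed from the excesses over like-bright probes. There the brightest 25% of probes kept a median log2 ratio of -0.069 (mutant in Cy3) and -0.057 (Cy5) after loess. On the other arrays that median lay between -0.025 and -0.002. After loess, with the mutant in Cy3 and in Cy5, NHP2 was at 0.05 and 0.06 and Nop56 at -0.07 and -0.13. RpLP0-like was at 0.44 and 0.65, Nop60B at 0.75 and 0.22, and mRpS5 at 0.27 and 0.09. The place of NHP2 near 0 there thus depended on the measure, whereas Nop56 lay near 0 by both measures.

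**Figure D3:**
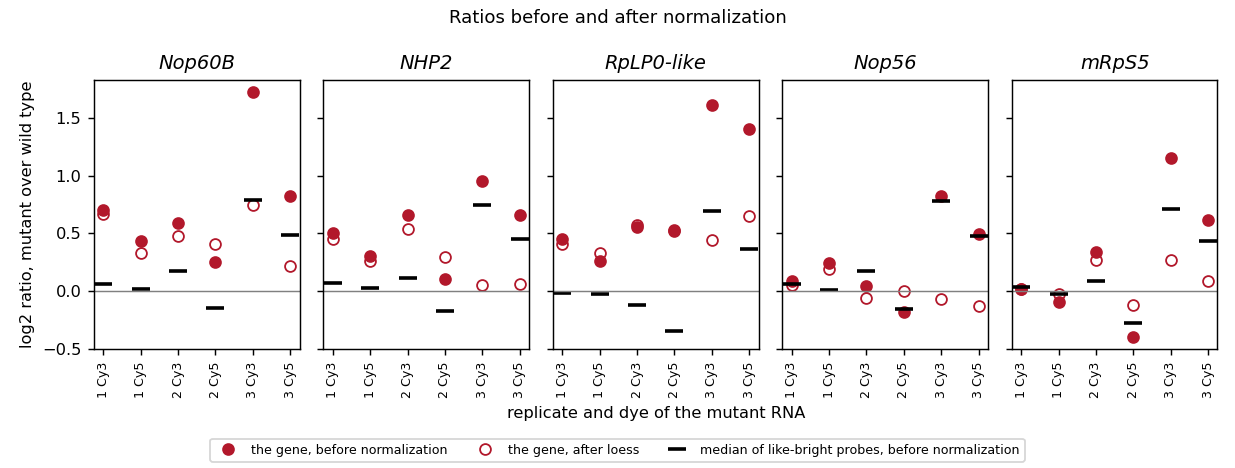
Log2 ratio of mutant over wild type (vertical axis) on each array (replicate and dye of the mutant RNA) before normalization (filled) and after loess (open), with the median of like-bright probes before normalization as a bar. In replicate 3 the filled points and the bars lie above 0 for all 5 genes, Nop56 sits on its bar, and Nop60B and RpLP0-like sit above theirs.

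Without the brightness-dependent step NHP2 lay above RpLP0-like. When each array was only centred on its median, Nop60B was at 0.66, NHP2 at 0.45 and RpLP0-like at 0.42. Nop56 was then at 0.18 and mRpS5 at 0.18, against -0.01 and 0.08 with loess, so the sign of Nop56 depends on this choice. With loess within printed blocks, Nop56 was at -0.12, NHP2 at 0.17 and mRpS5 also at 0.17. NHP2, Nop56 and RpLP0-like were printed in the same block of the array, whose 607 tested probes had a median log2 ratio of 0.04.

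**Figure D4:**
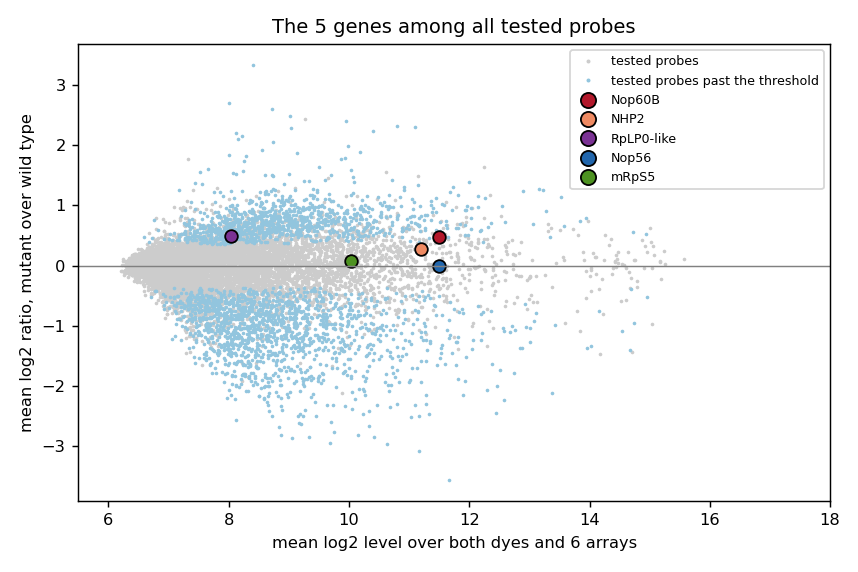
Mean log2 ratio of mutant over wild type (vertical axis) against mean log2 level of the spot (horizontal axis) for 14632 tested probes, with those past the threshold in blue and the 5 genes as large points. Nop60B, NHP2 and Nop56 lie among bright spots, and RpLP0-like, the dimmest of the 5, lies above 65.7% of tested probes in level.

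Set against the mitochondrial ribosome gene on the same arrays, Nop60B and RpLP0-like stood higher throughout. The log2 ratio of Nop60B exceeded that of mRpS5 by 0.51, 0.37 and 0.30 in the 3 replicates (0.39 ± 0.10, n = 3) and on 6 of 6 arrays. RpLP0-like exceeded it by 0.37, 0.48 and 0.36 (0.41 ± 0.06), also on 6 of 6 arrays. NHP2 exceeded it by 0.36 and 0.34 in replicates 1 and 2 and lay below it by -0.13 in replicate 3 (0.19 ± 0.28, 4 of 6 arrays). Nop56 did not stand apart from it, with 0.12, -0.10 and -0.28 (-0.09 ± 0.20, 3 of 6 arrays). These differences come from the contrast used to choose the genes and carry no test. As a description, the difference from mRpS5, the only mitochondrial ribosome gene here, varied from gene to gene.

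Within the nucleolar genes, the box H/ACA pair stood above Nop56, the only box C/D gene here. Nop60B exceeded Nop56 by 0.48 ± 0.10 and NHP2 exceeded it by 0.28 ± 0.15 (n = 3), each on 6 of 6 arrays. Between the box H/ACA partners, Nop60B exceeded NHP2 by 0.20 ± 0.21, by 0.14 and 0.02 in replicates 1 and 2 and by 0.43 in replicate 3. RpLP0-like and Nop60B differed by 0.01 ± 0.13, on 3 of 6 arrays in each direction. These differences too come from the contrast used to choose the genes and carry no test.

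Few other genes of these pathways carried a name. Of the lists of box H/ACA, box C/D and stalk proteins, ribosomal proteins, nucleolar assembly and rRNA synthesis, growth regulators and translation factors, 2 genes besides the 5 had a probe. RpL15, a protein of the cytosolic large subunit, was at -0.23 ± 0.23 (n = 3) and did not pass, with an adjusted p of 0.29 in limma. eIF4B, a translation initiation factor, was at -2.52 ± 0.36 and -2.46 ± 0.20 on its probes and was lower past the threshold on both, with an adjusted p of 0.00706 in limma. The other core proteins, Fib, nop5, hoip, NOP10 and GAR1, and the stalk proteins RpLP0, RpLP1 and RpLP2 were not analysed here.

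For each of the 5, the named genes with the closest ratios over the arrays were found. Closeness was the root mean square difference of the log2 ratio over 6 arrays, which counts a difference in mean as well as in pattern. It was taken among 36 probes of 33 other genes above background in at least 1 dye throughout. Nearest to Nop60B were AMPKalpha (0.22) and CG11837 (0.26), and nearest to RpLP0-like were CG11837 (0.17) and AMPKalpha (0.21). NHP2 lay nearest to AMPKalpha (0.22) and CG3558 (0.24), Nop56 to Herc4 (0.24) and CG3558 (0.28), and mRpS5 to MED21 (0.30) and CG3558 (0.31). The log2 ratios of these genes were 0.42 ± 0.13 for AMPKalpha, 0.39 ± 0.21 for CG11837 and 0.21 ± 0.05 for CG3558. Herc4 was at -0.21 ± 0.15 and MED21 at -0.05 ± 0.40, so the nearest genes of Nop56 lay on opposite sides of it. Among the 5 genes themselves, the smallest such differences were 0.23 between Nop56 and mRpS5 and 0.25 between Nop60B and RpLP0-like.

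The genes do not lie together in the genome, with Nop60B and RpLP0-like on arm 2R, NHP2 and mRpS5 on arm 3L and Nop56 on arm 3R. mRpS5 lies 36 genes before the centromeric end of its arm in the gene table. Of the named genes around it, Snap25, 4 genes before it, was at -0.08 ± 0.38, and scro, 4 genes further on, at -0.13 ± 0.12. Both were dim, above background in mutants on 0 arrays for Snap25 and on 1 array for scro. MED21, a subunit of the Mediator complex 9 genes further on, was at -0.05 ± 0.40, and RpL15, 28 genes further on, at -0.23 ± 0.23. Dbp80, an RNA helicase 31 genes further on, was at -0.70 ± 0.16 on its brighter probe, and eIF4B, 34 genes further on, was at -2.52 ± 0.36. Dbp80 and eIF4B were lower past the threshold, and Snap25, scro, MED21 and RpL15 did not pass.

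Among markers of single cell types, 5 had a probe. The muscle genes up, Mlc1 and Prm were at -1.06 ± 0.65, -0.95 ± 0.95 and -0.47 ± 0.29, and none passed. In replicate 1 they were at -0.34, 0.01 and -0.14, closer to 0 than in the other replicates. The neuronal genes Ace and Snap25 were above background in mutants on 0 arrays and in wild type on 1 array each. Markers of the other lists were not analysed here. Their part in the ratios of the 5 genes was not tested.

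**Figure D5:**
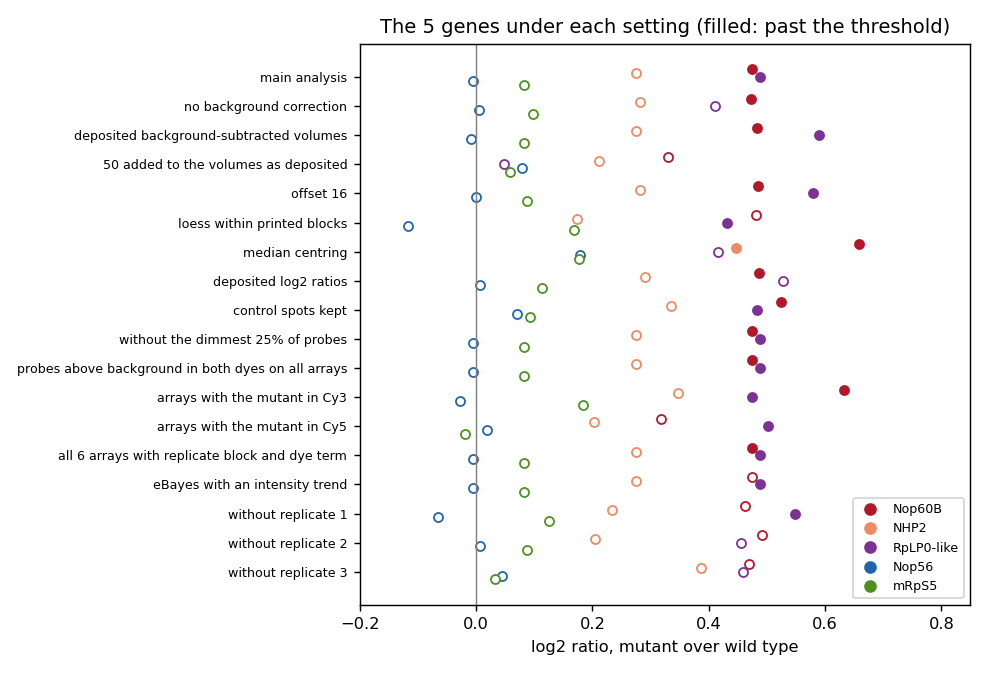
Log2 ratio of mutant over wild type (horizontal axis) of each gene under the main analysis and 17 other settings (rows), filled where the gene passed the threshold. Nop60B stays at 0.32 or higher, NHP2 at 0.17 or higher, and RpLP0-like drops to 0.05 with 50 added to the volumes as deposited, while Nop56 lies between -0.12 and 0.18.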

How the data were processed

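Per the file headers, ArrayVision measured the spots, and the authors deposited for each dye an intensity (volume), a local background, a background-subtracted volume with negative differences at 0, and a flag. The authors also deposited 1 log2 ratio per spot and array, and the submitters' processing notes list limma, without its steps. Set against the scanner volumes (correlation 0.994 to 0.998 with the mutant in Cy3, -0.994 to -0.989 in Cy5), these log2 ratios ran as mutant over wild type. This match, with 12 rows and 2 columns of printed blocks, also gave the spot order through which the platform annotation names genes, at 67 probes with 1 gene, 1 with several and 15676 spots with none.

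Of 15744 spots, 1052 were read from their layout as controls or blanks and had weight 0 in loess, and 60 flagged probes were left out. Volumes over a spot area taken as 0.02 square mm were corrected with normexp (offset 50, which pulls ratios of dim spots toward 0) and normalized by loess per array in limma 3.58.1 under R 4.3.3. Each log2 ratio was signed as mutant over wild type and averaged over its dye-swap pair, and lmFit and eBayes tested the 3 means against 0 over all probes, with Benjamini-Hochberg adjustment. The dye difference was tested likewise. The fit was checked on simulated data whose changes were larger than those of the genes followed here, so changes of their size were not checked. Median volumes per dye and array lay between 1.68 and 6.65, and 38.7% to 64.6% of the tested probes were above background in a channel. The number of arrays limits the precision, and the series' design text calls the biological replicates independently selected.

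The genes, lists, settings and the rule for nearest genes were chosen with earlier results of these data known. Named are the 5 genes, list genes with a probe, the nearest 2 genes of each, and markers. Dbp80 and scro were named for their place in the gene order, after their values were seen. The gene table (Release 6) gave symbols, arms and gene order. No coordinates are printed, since the files name no build. Of 6 value columns, 0 belonged to other samples.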

Additional observations from a re-analysis of the deposited data

How the results depend on the processing

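Of the 5 genes 2 passed in the main analysis, whereas 1 passed with the deposited log2 ratios, without background correction, with loess within printed blocks, on arrays with the mutant in Cy5 and with an intensity trend, and 0 passed with 50 added to the volumes as deposited. Leaving out 1 replicate gave 0 to 1. In the fit of all 6 arrays with replicate block and dye term 2 passed. The dye difference called 0 of 5 in each setting run. Over all probes it called 3 of 14632 in the main analysis and 156 of the 4290 probes above background in both dyes on all arrays. It called 5, 31 and 56 without replicates 1, 2 and 3, and 0 to 3 in the other settings. For mutant over wild type, 2609 of 14632 probes passed in the main analysis, against 51 with 50 added (80.4% of them higher, against 40.8%). Among probes above background throughout, 1670 of 4290 passed, a larger share than in the main analysis. With the replicate block 3932 passed. Without replicate 2, 0 passed and 2898 had an unadjusted p under 0.05 in limma. Of 85 values of the 5 genes under 17 alternatives, 74 moved by less than 1 SD between replicates and 11 by more. No called gene changed sign. Nop60B passed in 10 of 17, RpLP0-like in 11 and NHP2 in 1, median centring. Nop60B exceeded mRpS5 in 17 of 17 and RpLP0-like in 16, all but the 50 added (-0.01). NHP2 exceeded mRpS5 in 17 of 17, by only 0.006 with loess within printed blocks, and Nop56 in 4 of 17. The causes were not tested. RpLP0-like, the spot closest to its background, was at 0.05 with 50 added and at 0.59 with the deposited background-subtracted volumes. Levels with Aquantile scaling moved by less than 1 SD.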

Other observations

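For RpLP0-like the authors' deposited table differed in sign from both the scanner volumes and the normalized ratio on 1 array. In replicate 1 with the mutant in Cy3, the authors' deposited table gives a log2 ratio of -0.07, whereas the background-subtracted volumes give 0.45 and the normalized ratio was 0.41. The gap to the normalized ratio on that array, 0.48, was the largest of the 6 arrays. On the other arrays the authors' deposited table gives 0.56, 0.47, 0.60, 0.57 and 1.04, all above 0. For Nop60B, NHP2 and Nop56 the authors' deposited values differed from the normalized ratios by at most 0.04, 0.05 and 0.04 on any array, and those for mRpS5 by at most 0.14. Unnormalized volumes and deposited values also differed in sign for other genes. For Nop56 they gave 0.04 against -0.04 in replicate 2 with the mutant in Cy3. In replicate 3 Nop56 had 0.82 against -0.03 (Cy3) and 0.50 against -0.13 (Cy5). In replicate 1 mRpS5 had 0.015 against -0.004 (Cy3) and -0.095 against 0.011 (Cy5).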
